A study of Caenorhabditis elegans with 16 samples.

Results

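Small RNA reads that pair across a border of a fused reporter gene, or with its 3xflag epitope tag, were examined in 16 libraries of whole *Caenorhabditis elegans*. They were chosen by where they pair, in windows that were set with earlier results of these data known. A read was taken if its 5′ G paired with bases 1045 to 1065 or 1765 to 1785 of the cdk-1::gfp sequence, 1332 to 1418 of oma-1::3xflag, 721 to 741 of gfp::his-61, or 1350 to 1370 or 2061 to 2097 of oma-1::gfp. These windows held 91 rows, each a distinct sequence in 1 library, out of 4497 rows in all. The rows carried 1162 of 70009 reads, or 1.66%.

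22G-RNAs are antisense small RNAs that RNA-dependent RNA polymerases copy from messenger RNA, starting opposite a cytosine, and that worm Argonaute proteins bind to silence their targets. A read that holds enough of both sides of a border can be assigned to the joined RNA, whereas a read inside the gene may also come from the worm's own copy of that gene. RDE-3 adds the UG-rich tails that turn silenced RNAs into templates for this copying. PRG-1 is the Piwi Argonaute that binds piRNAs, and NRDE-4 and WAGO-9 act in nuclear RNA interference.

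Each genotype had 1 library, so no test between genotypes was made and each ratio compares a pair of libraries. cdk-1::gfp was read with introns (insertion neSi12), intronless (neSi71), intronless with rde-3(ne3370), also neSi71, and intronless with prg-1(tm872), on another insertion, neSi73. These insertions lay on chromosome II with Cbr-unc-119(+), in unc-119(ed9) animals except for the rde-3 strain, whose label names no unc-119 allele, and the worm's own cdk-1 was present. oma-1::3xflag was changed at the endogenous oma-1 gene and was read with restored introns (ne4868), intronless (ne4869), intronless with an rde-3 null (ne4871) on ne4869, and intronless with a prg-1 null (ne4844) on another edit, ne4845. gfp::his-61 was changed at the endogenous his-61 gene and was read with introns (ne4846) and intronless (ne4847). It was also read intronless with an rde-3 null (ne4848) or wago-9(ne4872) on ne4847, with a prg-1 null (ne4766) on ne4851 and with nrde-4(ne4679) on ne4874. Intronless oma-1::gfp, an insertion on chromosome II with Cbr-unc-119(+) in unc-119(ed9), was read with the endogenous oma-1 present (neSi74) and fully deleted (neSi75 with ne4864). RNA came from synchronised whole worms of a stage that the labels do not name, and each strain stands for 1 allele or insertion. Because the tables hold only reads on the reporters, neither the tissue nor the mutated genes could be checked against other genes.

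Levels are deposited ppm values, that is, reads scaled by 1 denominator per library, between 1982687.8 and 5546660.0. The labels do not say what that denominator counts. Libraries held 96 to 17406 reads on their reporter. Parentheses hold exact 95% intervals, which cover counting error alone, as PCR copies cannot be told from separate molecules here. A window or base without reads is given with the level of 3 reads, which serves as a fixed floor, and folds written as "at least" are set against that floor. The floor lies below the upper end of the exact interval of a count of 0, for example 0.541 ppm against 0.665 ppm in the restored oma-1::3xflag library, so these folds are not limits of the exact intervals. All libraries compared within cdk-1::gfp came from 1 library set. The oma-1::3xflag libraries in rde-3 and prg-1, the wago-9 library of gfp::his-61 and the oma-1::gfp pair were compared across sets, where set and genotype cannot be told apart. In the prg-1, nrde-4 and oma-1-deleted strains, the mutation and the other reporter allele cannot be told apart either, nor, in whole worms, fewer cells with the reads and fewer reads per cell.

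RefSeq's annotation of build WBcel235 places the native cdk-1 gene at 9747472 to 9748852 of chromosome III. On chromosome IV it places oma-1 at 8888976 to 8890999 and his-61 at 7485834 to 7486217. The gene-tag borders lie in coding sequence and the tag-flank borders at or just past the stop codon. The reads below, each the most counted at its base, are a selection from the windows and the bases beside them, shown because their letters tell how much of each side a read holds. They are read from the deposited files 5′ to 3′, that is, antisense, with T for U, and none had a mismatch. On oma-1::3xflag, capitals mark bases that pair with the tag:
oma-1::3xflag base 1337: GTAATCccagaggttcaagtgt
oma-1::3xflag base 1344: GGTCTTTGTAATCccagaggtt
oma-1::3xflag base 1391: GTCATCGTCTTTATAGTCAATA
oma-1::3xflag base 1413: gtagagaagttgttcaCTTATC
oma-1::3xflag base 1420: gacaaatgtagagaagttgttc
The read at base 1337 holds 6 bases of the tag and that at 1344 holds 13. The read at 1391 lies wholly in the tag, and that at 1413 holds its last 6 bases. Base 1420 lies just outside the window, and its read holds 0 bases of the tag.

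On gfp fusions the borders differ in what a read can span. In the cdk-1::gfp reads at the start of gfp, capitals mark the stretch of 724 bases (1039 to 1762) that cdk-1::gfp shares with gfp::his-61 (4 to 727), which holds gfp and 6 bases before the border:
cdk-1::gfp base 1044: GGATCTaaagagttcgagttct
cdk-1::gfp base 1060: GTTCTTCTCCTTTACTGGATCT
cdk-1::gfp base 1065: GAAAAGTTCTTCTCCTTTACTG
Both cytosines of the window, 1060 and 1065, thus give reads that are found whole in gfp::his-61 and hold no base from before the shared stretch. The read at base 1044, just outside the window, holds 6 bases of that stretch and the rest from before it. At the end of gfp in cdk-1::gfp, capitals mark the bases before the flank, that is, the end of gfp, a short joining stretch and the stop codon:
cdk-1::gfp base 1772: gaattacaTCAAGATCCTTTGT
cdk-1::gfp base 1776: gaatgaattacaTCAAGATCCT
In gfp::his-61, capitals mark bases past the same shared stretch, toward his-61:
gfp::his-61 base 725: gatcctttgtatagttcatcca
gfp::his-61 base 728: Gaagatcctttgtatagttcat
gfp::his-61 base 733: GTCCAGaagatcctttgtatag
The read at base 725 has 0 such bases and is also found whole in cdk-1::gfp, that at 728 has 1 and that at 733 has 6. In oma-1::gfp, capitals mark gfp in the first read and the linker between gfp and the 3′ flank in the second:
oma-1::gfp base 2072: gcggcggccctaTTTGTATAGT
oma-1::gfp base 2092: gtagagaagttgttcaGGCCGC
From base 1398 of oma-1::3xflag and base 2077 of oma-1::gfp to their ends, 470 bases, the references are the same, so bases 1413 and 2092 are the same cytosine of the oma-1 3′ flank behind a different upstream part.

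All deposited reads began with G and had at most 1 mismatch, so pairing of the first base with a cytosine was fixed by that selection unless the mismatch lay there. Of the 1162 reads, 1152 had that pairing. The other 10 had their only mismatch at that base, A1G, counted from the read's 5′ end with the reference's complement first. Reads with 1 mismatch made up 2.58% of reads in the windows and 3.56% of the others. No sequence occurred more than once in its own reference, so the 3 repeats of the tag did not share reads.

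Among the intronless libraries without a further mutation, oma-1::3xflag had the highest summed window level, with 416 reads or 86.4 ppm (78.3 to 95.2). They made up 7.58% (6.89 to 8.31) of the library. The windows differ in size, with 13 cytosines on oma-1::3xflag and 3 on gfp::his-61. Per cytosine, gfp::his-61 was higher, at 7.49 ppm against 6.65 ppm, and cdk-1::gfp had 4.08 ppm and oma-1::gfp 0.176 ppm. The summed oma-1::3xflag level was 0.361 ppm (0.0437 to 1.30) with restored introns, from 2 reads. It was 4.84 ppm (2.5 to 8.45) in rde-3, from 12 reads. In prg-1 it was 115.6 ppm (104 to 128), from 376 reads. Intronless and prg-1 were thus high, rde-3 low and the restored library under the level of 3 reads, 0.541 ppm.

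All but 1 of the 13 cytosines of this stretch were used in the intronless library. Reads that bridge oma-1 and the tag came from base 1337 with 31 reads, 1343 with 4 and 1344 with 19, in all 11.2 ppm (8.43 to 14.6). Reads wholly in the tag came to 39.9 ppm (34.5 to 46.0). They were uneven, with 5 reads at base 1355, 14 at 1365, 5 at 1376, 27 at 1385 and 141 at 1391. Reads were also counted by the tag repeat that paired with their 5′ G. The first (1332 to 1352) had 54 reads, the second (1353 to 1373) 19 and the last (1374 to 1397) 173, on 3, 2 and 3 cytosines. The rest of each read pairs with the bases before, which can lie in another repeat or in oma-1. Reads that bridge the tag and the 3′ flank had 35.3 ppm (30.2 to 41.1), with 13 reads at base 1402, 26 at 1405, 0 at 1408, 12 at 1410 and 119 at 1413. Bases 1391 and 1413 ranked 5 and 8 among the 361 positions with reads in this library. Per cytosine the windows had 2.83 times the reads of the rest of the reference.

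The upper limit of this window leaves out a larger peak. Base 1420, whose read pairs with the last 2 bases of the stop codon and with the flank, had 931 reads in the intronless library, 1 with restored introns, 39 in rde-3 and 841 in prg-1. Base 1413, just inside, had 119, 0, 3 and 80. At the lower limit, base 1328 just outside had 13, 0, 0 and 2 reads and base 1337 just inside had 31, 1, 2 and 55.

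The comparison with restored introns asked how reads on the tag and its borders differed when introns were absent. The windows were 239.7-fold higher without introns (66.0 to 1986), and the 100 nt before and behind them 254-fold (45.0 to 10061) and 295-fold (135 to 806). All 12 window positions with reads were higher, beside 98.6% of all positions of the reference. The rest of the reference had a ratio of 62.2 (50.7 to 77.1), and relative to it the windows were at 3.85 (1.03 to 32.4), resting on 2 reads. Against the floor of 3 reads, base 1391 had at least 54.2-fold more, with 141 reads against 0, and base 1413 at least 45.7-fold more, with 119 against 0.

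In rde-3 the tag and its borders were 17.9-fold lower (10.1 to 34.9), or 34.7-fold lower in unscaled reads. The rest of the reference was 17.6-fold lower, so the windows were at 0.982 (0.492 to 1.79) relative to it. The 12 reads fell on 7 cytosines, with 3 at base 1413, 2 each at 1337, 1391 and 1402, and 1 each at 1344, 1385 and 1410. Reads bridging oma-1 and the tag fell from 54 to 3, those wholly in the tag from 192 to 3 and those bridging tag and flank from 170 to 6. Within the library set of the rde-3 library, the prg-1 library was 23.9-fold higher (13.5 to 46.7), a comparison added after seeing the data.

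In prg-1 the windows stood at 1.34 times the intronless level (1.16 to 1.54), or 0.904 in unscaled reads. The rest of the reference was 4.97-fold higher (4.81 to 5.12), and the windows were at 0.269 (0.233 to 0.311) relative to it. Per cytosine they had 0.763 times the reads of the rest. The ratio changed along the tag. Reads bridging oma-1 and the tag were 3.07-fold higher (2.2 to 4.33), those wholly in the tag were at 0.894 (0.704 to 1.13), and those bridging tag and flank were 1.29-fold higher (1.03 to 1.62).

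Single cytosines moved in both directions. Base 1343 was 10.7-fold higher in prg-1 (3.77 to 42.0), from 4 to 29 reads, and base 1410 was 5.42-fold higher (2.82 to 11.3), from 12 to 44. Base 1391, the highest within the tag, was at 0.556 of the intronless level (0.398 to 0.768), with 53 reads against 141. Base 1365 was at 0.211 (0.0233 to 0.920), with 2 reads against 14. Base 1413 was at 0.995 (0.740 to 1.33). In all, 9 of 14 window positions were higher in prg-1, beside 80.6% of all positions of the reference. Leaving out the highest window position of each library, base 1391 without the mutation and 1413 in prg-1, gave a ratio of 1.59 for the windows.

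On cdk-1::gfp nearly all border reads lay at the end of gfp. The window at 1765 to 1785 had 53 reads without introns, at 23.2 ppm (17.3 to 30.3), and 1 read with introns, at 0.453 ppm (0.0115 to 2.52). It had 3 reads in rde-3, at 0.95 ppm (0.196 to 2.78), and 36 in prg-1, at 18.2 ppm (12.7 to 25.1). Base 1772, whose read holds 14 bases before the flank, stop codon included, and 8 of the flank, had 45 reads without introns, 0 with introns, 0 in rde-3 and 32 in prg-1. Base 1776 had 6, 0, 0 and 3 reads, base 1779 had 2, 1, 0 and 1, and base 1782 had 0, 0, 1 and 0. The intronless and prg-1 libraries thus shared their order of positions.

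The window at the start of gfp was almost empty. It had 3 reads without introns, at 1.31 ppm (0.270 to 3.83), and 1 in prg-1, at 0.504 ppm (0.0128 to 2.81). It had 0 reads with introns, where 3 reads would be 1.36 ppm, and 0 in rde-3, where 3 reads would be 0.95 ppm. Base 1065 gave 2 of the intronless reads and the prg-1 read, and base 1060 gave 1 read. Per cytosine this window had 0.195 times the reads of the rest of the reference in the intronless library, against 1.72 times for the window at the end of gfp. Just outside the lower limit, bases 1043 and 1044 had 2 reads each in the intronless library and 0 in the other libraries. Just outside the upper limit, base 1067 had 0 reads in every library. At the other window, base 1760 just outside had 9 reads without introns, 1 with introns, 0 in rde-3 and 8 in prg-1.

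In the intronless comparison, the stretches before and behind each border had different ratios. Those outside gfp may also hold reads of the worm's own cdk-1, which were not separated. Before the start of gfp, the 100 nt of cdk-1 stood at 24.0 ppm without introns and at 20.8 ppm with them, a ratio of 1.15 (0.766 to 1.75). Behind the start, 100 nt of gfp rose to 49.4 ppm from 0.453 ppm, a ratio of 109 (19.2 to 4346). At the end, the last 100 nt of gfp had a ratio of 61.5 (23.7 to 228) and the border window one of 51.2 (8.79 to 2059). The 100 nt of flank behind that window stood at 16.6 ppm and 14.5 ppm, giving a ratio of 1.15 (0.697 to 1.9). Both windows together had a ratio of 54.1 (9.31 to 2173), with 56 reads against 1. It was at least 3.54 when the highest window position of each library was left out, which removed the only read with introns.

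In rde-3 the windows were 25.8-fold lower than in the intronless library (8.38 to 129). The rest of the reference was 4.94-fold lower, and the windows were at 0.192 (0.0383 to 0.592) relative to it. The 3 reads left, 1 at base 1782 and 2 at base 1785 with the mismatch A1G, held at most 4 bases before the border. With at least 5 nt on each side of a border, 0 reads were left in rde-3 (3 reads would be 0.95 ppm), against 54 reads or 23.6 ppm without the mutation. The flank behind the window instead stood at 22.2 ppm in rde-3 and 16.6 ppm without it, giving a ratio of 1.33 (0.887 to 2.04), and the cdk-1 stretch before gfp one of 1.44 (1.03 to 2.02). This cdk-1 stretch and the flank may also be read from the worm's own cdk-1, and no genome sequence was used to separate them.

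In prg-1 the windows were at 0.763 of the intronless level (0.489 to 1.18), while the rest of the reference was at 1.17 (1.11 to 1.23). The windows were thus at 0.652 relative to the rest, with an interval of 0.417 to 1.01 that includes no change. Base 1772 had a ratio of 0.821 (0.505 to 1.32). None of the 5 window positions with reads was higher in prg-1, beside 42.7% of all positions, but the counts at 4 of them were 6 or lower.

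The window at the border of gfp and his-61 had reads at all 3 of its cytosines in the intronless library. As shown above, the read at base 725 holds 0 bases past the stretch shared with cdk-1::gfp, and that at 728 holds 1. The window had 77 reads, at 22.5 ppm (17.7 to 28.1), with 10 at base 725, 32 at 728 and 35 at 733. With introns it had 1 read, at base 728, or 0.372 ppm (0.00942 to 2.07). In rde-3 it had 0 reads, where 3 reads would be 0.630 ppm. In prg-1 it had 52 reads, at 16.4 ppm (12.3 to 21.6), with 7, 24 and 21 at the 3 bases. In nrde-4 it had 38 reads, at 12.4 ppm (8.78 to 17.0), with 4, 11 and 23. In wago-9 it had 13 reads, at 3.04 ppm (1.62 to 5.2), with 2, 1 and 10. The intronless library was the highest, and the intron-containing and rde-3 libraries were at or under the level of 3 reads. Base 717 just outside had 7 reads in the intronless library, 0 with introns, 1 in rde-3, 8 in prg-1, 12 in nrde-4 and 1 in wago-9. Base 747, the next cytosine behind the window, had 0 reads in every library.

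Without introns the window was 60.4-fold higher than with them (10.5 to 2415). It was at least 11.0-fold higher when the highest window position of each library was left out, which removed the only read with introns. The rest of the reference was 11.9-fold higher (10.7 to 13.3), and the window was at 5.07 (0.877 to 203) relative to it. The last 100 nt of gfp before it had a ratio of 32.1 (16.8 to 70.9), and the 100 nt of his-61 behind it stood at 3.21 ppm and 2.23 ppm, giving a ratio of 1.44 (0.487 to 4.73). In rde-3 the window was at least 35.6-fold lower against the floor of 3 reads, and at least 19.4-fold with the highest window position left out. The rest of the reference was 34.2-fold lower. The 100 nt of his-61 behind it stood at 5.46 ppm and 3.21 ppm, giving a ratio of 1.7 (0.813 to 3.82), and the gfp before it at 0.0137 (0.00545 to 0.0284). On the his-61 side, both of these ratios thus had intervals that include 1. Reads on the his-61 part that also match elsewhere in the genome were not separated, here and in the mutants below.

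In prg-1 the border window was at 0.732 of the intronless level (0.504 to 1.05), between stretches that were higher. The 100 nt of gfp before it had a ratio of 1.19 (1.03 to 1.37) and the 100 nt of his-61 behind it one of 5.81 (3.02 to 12.3). Relative to these, the window was at 0.617 (0.413 to 0.916) and 0.127 (0.0549 to 0.273). Relative to the rest of the reference it was at 0.331 (0.228 to 0.478). Both the his-61 stretch and the rest may hold reads that also match elsewhere in the genome, and these were not separated. None of the window's 3 positions was higher in prg-1, beside 80.1% of all positions. Their ratios were 0.758 at base 725, 0.812 at 728 and 0.650 at 733, each with an interval that includes 1.

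This border was lower in both nuclear RNA interference mutants. In nrde-4 the window was at 0.552 of the intronless level (0.364 to 0.824), near the 0.659 (0.629 to 0.689) of the rest of the reference. The 100 nt of gfp before it fell further, to 0.209 (0.159 to 0.271), so that the window was 2.63-fold higher relative to them (1.60 to 4.30). In wago-9 the window was at 0.135 (0.0689 to 0.245), and the 100 nt of gfp before it at 0.0912 (0.0646 to 0.126), while the rest of the reference was at 0.503 (0.481 to 0.526). Relative to the rest the window was at 0.269 (0.137 to 0.489), and relative to the gfp stretch at 1.48 (0.696 to 2.98). Base 728 fell from 32 reads to 1 in wago-9, a ratio of 0.0250 (0.000615 to 0.150), and base 733 from 35 to 10, a ratio of 0.229 (0.101 to 0.472). The window was at 0.0572 when the highest position of each library, base 733 in both, was left out. All 3 positions were lower in each mutant. Positions that were higher made up 32.2% of the reference in nrde-4 and 26.6% in wago-9.

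Intronless oma-1::gfp had few border reads for its depth. With the endogenous oma-1 present, its windows held 13 of 5100 reads, at 2.46 ppm (1.31 to 4.21), and with oma-1 deleted 65 of 11983 reads, at 13.4 ppm (10.3 to 17.1). Per cytosine that was 0.108 and 0.231 times the reads of the rest of the reference. With oma-1 present, that rest may also hold reads of the endogenous gene. The start of gfp had 3 reads, at 0.568 ppm (0.117 to 1.66), against 10 reads, at 2.06 ppm (0.987 to 3.78). Base 1370 gave 3 and 4 of them and base 1365 gave 0 and 1. The other 5 reads in the deletion library lay at base 1369 with the mismatch A1G. Base 1370, like base 1065 of cdk-1::gfp, gives a read with 21 bases of gfp and 1 before it. Just outside, base 1346 had 0 reads in both libraries and base 1372 had 1 with oma-1 present and 2 with it deleted.

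The stop codon and linker behind gfp, bases 2061 to 2076, gave almost no reads although 43.8% of their bases are cytosines. These 7 cytosines, from base 2066 to 2076, had 5 reads with oma-1 present, 1 at 2069, 1 at 2070 and 3 at 2072, and 2 reads with oma-1 deleted, at 2067 and 2070. The first 3 cytosines of the shared 3′ flank, at 2081, 2084 and 2087, had 0 reads in both. On oma-1::3xflag the same cytosines, at 1402, 1405 and 1408, had 13, 26 and 0 reads in the intronless library. Base 2089 had 1 and 3 reads and base 2092 had 4 and 49, so base 2092 held 89.1% of the deletion library's reads in this window. The same 2 cytosines on intronless oma-1::3xflag, 1410 and 1413, had 12 and 119 reads. Base 2099, the cytosine outside the window that matches base 1420, had 276 reads with oma-1 present and 714 with it deleted. Base 2057 on the other side had 7 and 15.

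The comparison of these libraries asked how reads on the reporter changed once the endogenous gene was gone. All windows together were 5.44-fold higher in the deletion library (2.97 to 10.8), and the rest of the reference 2.55-fold (2.47 to 2.63). Relative to the rest, the windows were at 2.13 (1.16 to 4.22). Without the highest window position of each library, base 2092, the ratio was 1.93 (0.805 to 4.97). Base 2092 alone was 13.3-fold higher (4.89 to 50.8) and base 2099, further into the flank, 2.81-fold (2.45 to 3.25). Base 2099, the oma-1 part, the flank and the rest of the reference may hold reads of the endogenous oma-1 where it was present. Such reads were not separated. The start of gfp had a ratio of 3.63 (0.934 to 20.5), between 4.27 (3.35 to 5.5) in the 100 nt of oma-1 part before it and 1.47 (1.13 to 1.93) in the gfp behind it. The last 100 nt of gfp were lower with oma-1 deleted, at 0.730 (0.629 to 0.846), and the 100 nt of flank behind the window were 2.28-fold higher (2.06 to 2.53). In all, 8 of 10 window positions with reads were higher in the deletion library, beside 84.3% of all positions.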

How the data were processed

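Per the labels' protocols, whole-worm small RNAs were enriched, their 5′ ends were trimmed to a monophosphate form with PIR-1, and adaptors and PCR followed. Cutadapt, Bowtie2 and build WBcel235 are named in the submitters' processing notes, with versions and settings not given in the sources used here. Deposited files hold raw read counts by the authors, per the file headers, and RPM values (ppm) scaled by the authors with 1 denominator per library. All sequences had 22 nt, began with G and matched the reporter's antisense strand with at most 1 mismatch.

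Reads were summed per window and position and divided by the denominator. Levels have Poisson, shares Clopper-Pearson and ratios exact conditional intervals, and values relative to other stretches have conditional odds ratios. A 0 is replaced by 3 reads in ratios. The interval code was tested on simulated data. Named positions are the 3 with the most reads per window and library, those just inside and outside each limit, and any whose count a sentence turns on. The windows, members and lists were chosen with earlier results of these data known. Reads also found in the genome were not separated. Alternatives used reads without mismatch, unscaled reads, windows without their highest position, and a wider tag window. Another used reads with at least 5 nt on each side of a border or wholly in the tag. Python 3.11.15, numpy 2.4.6, pandas 2.3.3 and scipy 1.17.1 were used.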

Additional observations from a re-analysis of the deposited data

Results flagged for a closer look

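In scaled levels, the border windows differed in direction in prg-1 between reporters. They were higher on oma-1::3xflag, with a ratio to the intronless library of 1.34, and lower on cdk-1::gfp, at 0.763, and on gfp::his-61, at 0.732. In unscaled reads all 3 ratios were below 1, at 0.904, 0.661 and 0.675, so the directions no longer differed. The difference between reporters was not tested. In scaled levels the intervals of the lower pair include 1. In unscaled reads the interval of gfp::his-61, 0.466 to 0.973, excludes 1, while those of cdk-1::gfp and oma-1::3xflag include it. Each prg-1 strain carried another reporter allele than its intronless strain, and the oma-1::3xflag pair crossed library sets. Relative to the rest of the same reference, all 3 ratios were below 1, at 0.269 (0.233 to 0.311), 0.652 (0.417 to 1.01) and 0.331 (0.228 to 0.478). For cdk-1::gfp that rest may hold reads of the worm's own cdk-1. Reads that also match elsewhere in the genome were not separated for any reporter.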

How the results depend on the processing

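Of 51 alternative values of the 12 ratios, 45 stayed inside the interval of the value as reported or, for the bound of gfp::his-61 in rde-3, within 1.5 times of it. These include all 12 with reads without mismatch, all 12 with at least 5 nt on each side of a border and all 3 with the wider tag window. The rule of 5 nt also kept reads wholly in the tag. It left all 416 intronless reads on oma-1::3xflag and all 77 on gfp::his-61, so it could hardly move the ratios of these reporters. The 45 also include the intronless ratio of gfp::his-61, which without the highest position is only a bound, at least 11.0, and the rde-3 ratio of oma-1::3xflag, 34.7-fold lower in unscaled reads. Where intervals were wide, large shifts stayed inside them. The intronless ratio of oma-1::3xflag went from 239.7 to 517.5 with the wider tag window. With reads without mismatch, the rde-3 ratio of cdk-1::gfp went from 25.8-fold to 74.5-fold lower. In unscaled reads the oma-1::3xflag ratio of prg-1 reversed to 0.904, since the prg-1 denominator is smaller. Leaving out the highest window position of each library moved 5 ratios. The intronless ratio of cdk-1::gfp became at least 3.54, the prg-1 ratio of oma-1::3xflag 1.59, and the wago-9 ratio of gfp::his-61 0.0572. The rde-3 ratio of gfp::his-61 became at most 0.0514, and that of oma-1 deleted over present on oma-1::gfp 1.93. Counts limit the low libraries, since windows with 0 to 3 reads leave ratios with wide intervals or bounds. No paired analysis was possible because each genotype had 1 library.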
